A study of Trichoderma harzianum with 18 samples.

Results

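The cellulose-induced endoglucanases of *Trichoderma harzianum* described here are 5 of the 14650 genes in the deposited tables and 5 of the 14 genes that the study annotates as endo-β-1,4-glucanase. They are CEL7B of glycoside hydrolase family GH7 (M431DRAFT_512303), EG III of family GH12 (M431DRAFT_91916), a pair of genes of subfamily GH5_5 (M431DRAFT_14278 and M431DRAFT_441083) and a gene of family GH45 (M431DRAFT_89222). The study names the genes by Triha1 and the same number, and the last 3 are called Triha1_14278, Triha1_441083 and Triha1_89222 here. The 5 genes were chosen because their reads were higher in wild-type cultures on cellulose than in wild-type cultures on D-fructose. They are not a complete list of the endoglucanases that can be called higher on cellulose. The levels in the wild-type cellulose cultures, and every difference from those cultures, are therefore a description without a test.

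RNA was sequenced from mycelium of 18 shake-flask cultures, 3 in each of 6 groups. The wild type was strain CBS 226.95, and the Δ*xyr1-2* mutant was 1 transformant of that strain in which a hygromycin resistance cassette replaced *xyr1*. Mycelium pre-grown for 36 h in D-fructose medium was moved to 1% (w/v) cellulose, to 25 mM D-fructose or to medium without a carbon source, and was harvested after 18 h. Cellulose was given as a microcrystalline powder.

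Endo-β-1,4-glucanases cut bonds inside the cellulose chain and open new chain ends, from which cellobiohydrolases release cellobiose, which β-glucosidases then split to D-glucose. Many of these enzymes carry a carbohydrate-binding module of family CBM1, a small domain that holds the enzyme on the cellulose surface. XYR1 is the zinc binuclear cluster transcription factor known in *Trichoderma reesei* as the main activator of cellulase and xylanase genes, and *xyr1* encodes it.

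The libraries held 16208381 to 21263103 reads on genes, so that a count of 0 allowed up to 0.141 to 0.185 RPM (reads per 1000000 reads on genes) in a library. This limit, and every interval of a read ratio given here, covers counting error only. The strain labels fitted the reads on *xyr1*, with 1272 to 13130 reads in each wild-type library and 0 to 11 in each mutant library. Replicate 3 of the wild type on cellulose stood apart from the other 2 replicates in many cellulase genes, and values without it are given beside the results that rest on it. In these whole-mycelium samples, fewer hyphae expressing a gene and less RNA in each hypha cannot be told apart.

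None of the 5 genes is the annotated neighbour of another in assembly Triha v1.0, and they come from 4 glycoside hydrolase families. CEL7B spans bases 254854 to 256966 of its scaffold, EG III bases 1020923 to 1021753, Triha1_14278 bases 894490 to 896093, Triha1_441083 bases 182476 to 184430 and Triha1_89222 bases 1393040 to 1393901. The transcript lengths implied by the deposited values were 1984 bases for CEL7B, 708 for EG III, 1604 for Triha1_14278, 1846 for Triha1_441083 and 747 for Triha1_89222. A CBM1 module is annotated in 4 of the 5, EG III being the one without it, and in 1 of the 9 other endoglucanases, Triha1_521975 of family GH45. A reciprocal best BLAST hit in *T. reesei* is annotated for 3 of the 5 and for 6 of the 9 others. Of the 5, Triha1_14278 and Triha1_89222 are the 2 without one, and hits in 1 direction only were not examined.

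Levels are given as FPKM (read fragments scaled by transcript length and by the reads of the library), which can be compared between genes. In the wild type on cellulose, CEL7B, a counterpart of endoglucanase I of *T. reesei*, had 150 FPKM in replicate 1, 93.1 in replicate 2 and 525 in replicate 3 (mean 256 ± 235 SD, n = 3). EG III, a small endoglucanase without a binding module, had 41.9, 38.1 and 141 FPKM (mean 73.8 ± 58.6 SD, n = 3). Triha1_14278 had 143, 98.8 and 489 FPKM (mean 244 ± 214 SD, n = 3). The other GH5_5 endoglucanase, Triha1_441083, had 120, 98.1 and 616 FPKM (mean 278 ± 293 SD, n = 3). The GH45 endoglucanase Triha1_89222 had 102, 91.7 and 709 FPKM (mean 301 ± 354 SD, n = 3). In each gene replicate 3 was the highest and replicate 2 the lowest. By mean FPKM the order was Triha1_89222, Triha1_441083, CEL7B, Triha1_14278 and EG III. Neighbours above EG III in it differed by less than the SD of either gene. EG III lay below each of the others in every replicate.

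The order within a library was steadier at its lower end than at its upper end. EG III was the lowest of the 5 in all 3 wild-type cellulose libraries and held 7.43% ± 1.69 (SD, n = 3) of their summed FPKM. CEL7B held 23.4% ± 3.12, Triha1_441083 23.2% ± 1.66, Triha1_14278 23.0% ± 3.03 and Triha1_89222 22.9% ± 5.24 (SD, n = 3). These 4 shares lay within 1 SD of each other. The leading gene changed with the library, being CEL7B with 27.0% in replicate 1, Triha1_14278 with 23.5% in replicate 2 and Triha1_89222 with 28.6% in replicate 3.

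**Figure D1:**
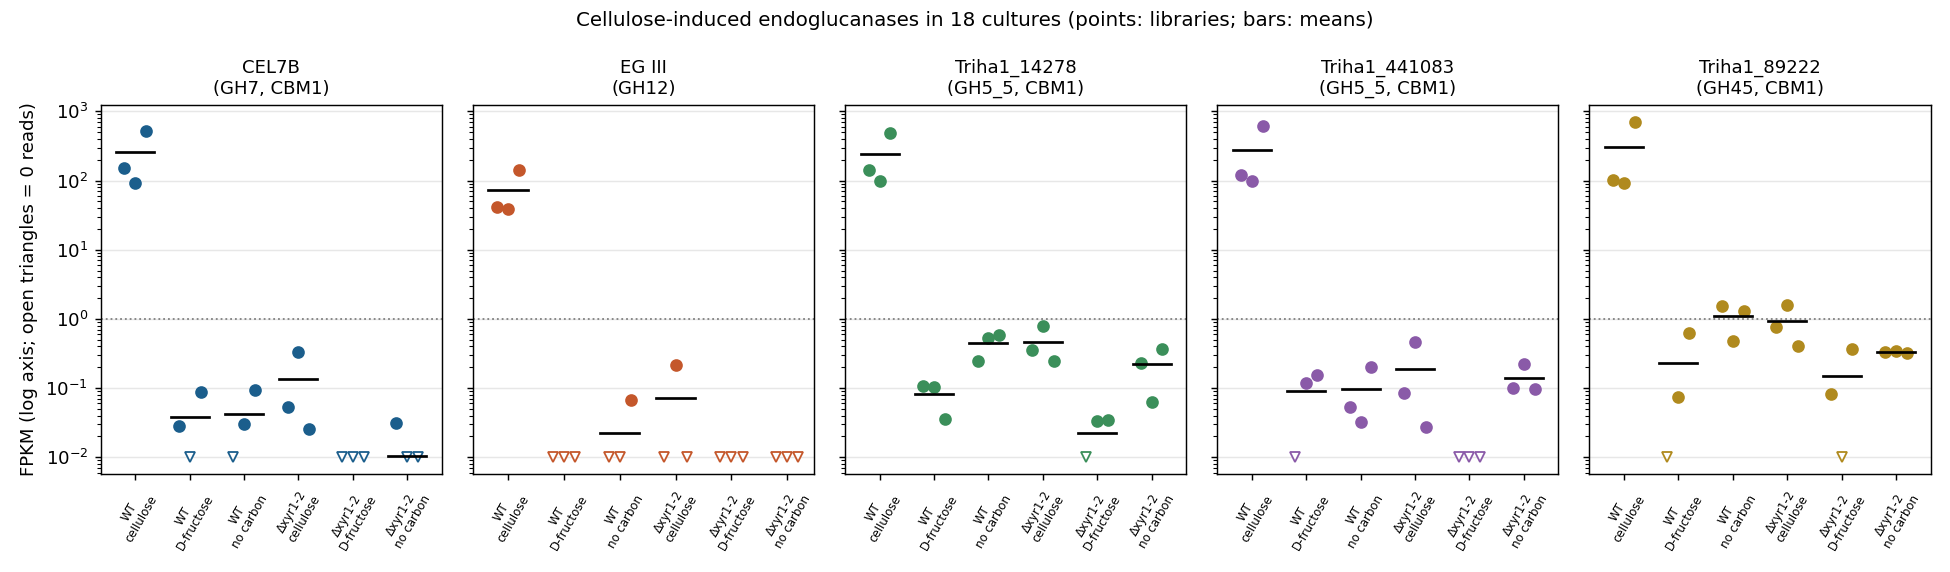
FPKM on a log axis for each of the 5 endoglucanases (panels) in the 18 libraries (points, by group), with the mean of each group as a bar and open triangles for libraries with 0 reads. All 3 wild-type cellulose points of each gene lie at 38.1 FPKM or above, and all points of the other 5 groups lie at 1.61 FPKM or below.

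FPKM in replicate 3 was, relative to the mean of replicates 1 and 2, 4.31 times as high for CEL7B, 3.53 times for EG III, 4.04 times for Triha1_14278, 5.65 times for Triha1_441083 and 7.33 times for Triha1_89222. Over the 9892 genes with a mean above 1 FPKM on cellulose, the median of this ratio was 1.05, and 651 of them (6.58%) reached the lowest ratio of the 5 endoglucanases. The cellobiohydrolases, which act on the chain ends, had ratios of 6.78 for CEL7A and 4.07 for CEL6. Among the lytic polysaccharide monooxygenases of family AA9, which break cellulose by oxidation, the ratio was 2.35 for Triha1_99387 and 1.63 for Triha1_488374, while Triha1_131108 had under 1 FPKM in the mean of every group. The ratio of *xyr1* itself was 2.51, with 72.6, 145 and 273 FPKM in replicates 1 to 3. The endoglucanases and *xyr1* thus shared their highest library but not their lowest, which was replicate 2 for the endoglucanases and replicate 1 for *xyr1*. What sets replicate 3 apart was not tested.

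**Figure D2:**
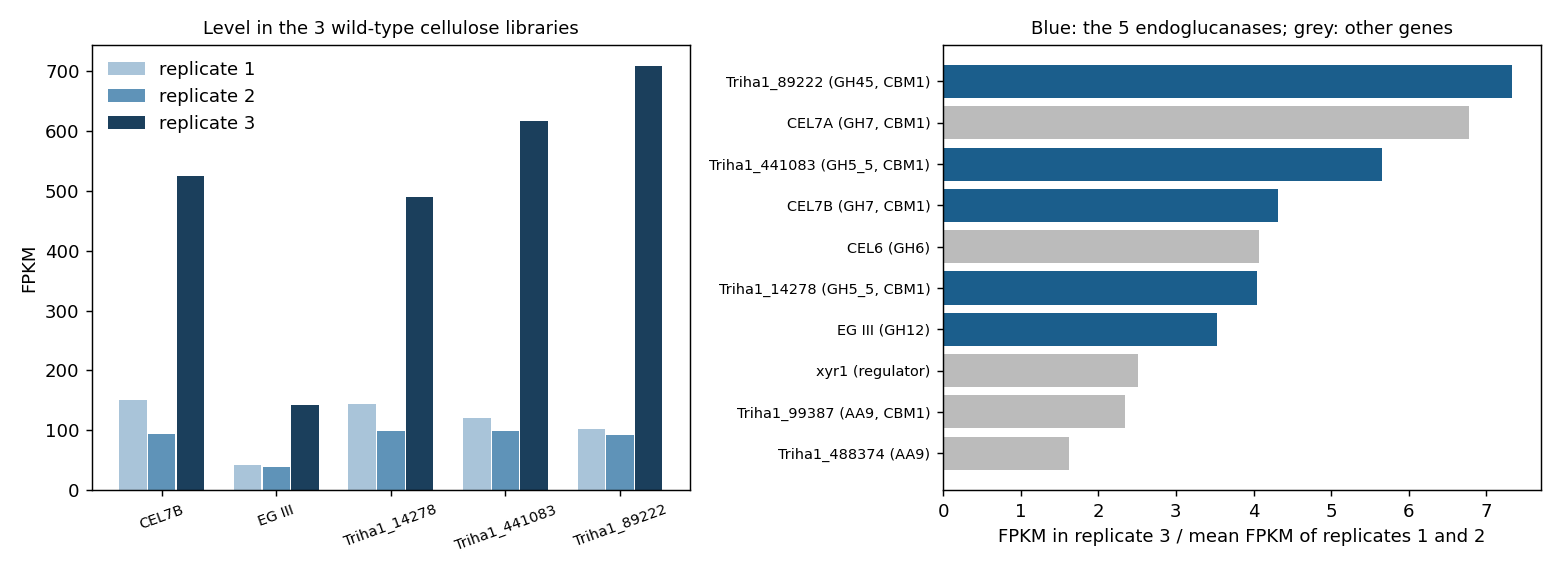
Left, FPKM of the 5 endoglucanases in the 3 wild-type cellulose libraries (bars by replicate). Right, FPKM in replicate 3 divided by the mean of replicates 1 and 2, for the 5 endoglucanases (blue) and for cellobiohydrolases, AA9 monooxygenases and *xyr1* (grey), running from 1.63 for Triha1_488374 to 7.33 for Triha1_89222.

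On D-fructose, the same genes in the wild type had between 0 and 8 reads per library. CEL7B had 1, 0 and 3 reads in replicates 1 to 3, EG III 0, 0 and 0, Triha1_14278 3, 3 and 1, Triha1_441083 0, 4 and 5, and Triha1_89222 0, 1 and 8. The groups on cellulose and on D-fructose did not overlap in any of the 5. These libraries chose the genes and the share of all genes without overlap was not computed, so nothing is read from this. Pooled over the libraries, RPM on CEL7B was 6718 times that on D-fructose (95% exact interval 2624 to 24660), and 3199 times without replicate 3 of the cellulose group. EG III was at least 922-fold higher, against a limit of 3 reads over the D-fructose group, and at least 501-fold higher without that replicate. The ratio was 2954 for Triha1_14278 (1469 without that replicate), 3015 for Triha1_441083 (1185) and 1320 for Triha1_89222 (426).

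The fitted log2 differences between cellulose and D-fructose in the wild type were 12.71 ± 1.15 (SE) for CEL7B, 11.59 ± 0.94 for Triha1_14278, 11.63 ± 1.25 for Triha1_441083 and 10.42 ± 1.41 for Triha1_89222. All 5 genes were called higher, as the choice of the genes requires, where 2.77% of the 10922 genes tested were called higher and 4.81% lower. These 2 shares depended on the libraries, being 10.2% and 15.5% without replicate 3 on cellulose, 7.22% and 11.1% with the replicate block, and 0.919% to 1.55% and 1.00% to 1.99% without any 1 of the other 5 libraries. A gene counted as called where its adjusted p was below 0.05, its fold exceeded 2 and its mean exceeded 1 FPKM in 1 of the groups. Without replicate 3 on cellulose the differences of these 4 were 11.72, 10.66, 10.37 and 8.89, and without replicate 3 on D-fructose those of CEL7B and Triha1_89222 were 13.92 and 12.74. Without replicate 2 on D-fructose, 4 of the 5 were called, all but Triha1_89222. Of the 5, Triha1_89222 lay closest to the threshold, and the nearest endoglucanases outside it were Triha1_119344 of subfamily GH5_15, with a log2 difference of 1.79 ± 0.46, and the GH45 gene Triha1_521975, with 2.51 ± 0.84. DESeq2 called both of these higher, and edgeR with the replicate block called Triha1_119344 higher, so that the set of endoglucanases called on cellulose depends on the test.

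Without a carbon source the wild type showed low levels that differed among the 5 genes. Triha1_89222 had 23, 6 and 21 reads in replicates 1 to 3, which were 1.53, 0.487 and 1.32 FPKM. Triha1_14278 had 8, 14 and 20 reads. Triha1_441083 had 2, 1 and 8 reads, CEL7B had 0, 1 and 4, and EG III had 0, 0 and 1. All of these lay far below the cellulose cultures, and none of the 5 genes overlapped between those groups. The share of all genes without overlap was not computed here either. Replicate 3 without carbon was the highest of its group in every gene of the 5 but Triha1_89222. That library was also highest for CEL7A, with 21, 16 and 168 reads in replicates 1 to 3, and for CEL6, with 34, 23 and 110. What sets it apart was not tested. RPM on cellulose was 5873 times that without carbon for CEL7B, 2695 times for Triha1_441083, 538 times for Triha1_14278 and 260 times for Triha1_89222, and 2796, 1060, 268 and 83.7 times without replicate 3 on cellulose. EG III, with 1 read in the group without carbon, had a ratio of 3021 (95% exact interval 542 to 119364). All 5 were called higher on cellulose, where 19.9% of all genes tested were higher and 22.1% lower, and nothing is read from this because the cellulose libraries are those that chose the genes.

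When the mutant lacking *xyr1* was given cellulose, the 5 endoglucanases had between 0 and 25 reads per library. CEL7B had 2, 13 and 1 reads in replicates 1 to 3, and EG III had 0, 3 and 0. Triha1_14278 had 11, 25 and 8 reads and Triha1_441083 had 3, 17 and 1. Triha1_89222 had 11, 24 and 6 reads, or 0.769, 1.61 and 0.403 FPKM, and was the one with the highest FPKM. Replicate 2 was the highest of the mutant cellulose libraries in all 5. The same library was highest for CEL7A, with 19, 272 and 18 reads, and for CEL6, with 20, 156 and 25. What sets this library apart was not tested. The deleted gene *xyr1* itself had 7, 11 and 4 reads in these libraries, which in RPM came to 0.0812% of the wild-type level on the same medium (0.0509 to 0.123, 95% exact interval). The same percentage was 0.0535% for CEL7B (0.0306 to 0.0869), 0.0695% for Triha1_441083 (0.0430 to 0.106) and 0.0975% for EG III (0.0201 to 0.285), with intervals that overlap that of *xyr1*. It was 0.191% for Triha1_14278 (0.139 to 0.257) and 0.310% for Triha1_89222 (0.222 to 0.421), with intervals above that of *xyr1*. Without replicate 2 the interval of Triha1_14278 (0.0750 to 0.195) overlapped that of *xyr1* (0.0306 to 0.110), and that of Triha1_89222 (0.113 to 0.311) did not. These intervals leave out the spread between cultures. In FPKM, wild-type replicate 3 on cellulose was 7.33 times the mean of the other replicates for Triha1_89222 and 2.51 times for *xyr1*. No order of the genes across cultures is therefore read from the intervals. How many of the reads in the mutant, or in the wild type off cellulose, stem from other wild-type libraries was not tested. The low levels in these groups, and the ratios that use them, may hold such reads.

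RPM in the wild type on cellulose was 1870 times that in the mutant on cellulose for CEL7B (95% exact interval 1151 to 3272), 1438 times for Triha1_441083 (941 to 2324), 523 times for Triha1_14278 (390 to 720) and 322 times for Triha1_89222 (238 to 450). EG III, with 3 reads in the mutant group, had a ratio of 1026 (351 to 4979). Without replicate 3 of the wild type the ratios were 890, 566, 260 and 104 for the first 4 and 558 for EG III. The fitted log2 differences, mutant minus wild type, were −11.51 ± 1.22 (SE) for CEL7B, −10.46 ± 1.04 for EG III, −9.69 ± 0.93 for Triha1_14278, −11.14 ± 1.35 for Triha1_441083 and −8.98 ± 1.20 for Triha1_89222. Their median was −10.46, beside 0.00 over all genes tested. All 5 were called lower, where 20.7% of all genes tested were, and the contrast again uses the libraries that chose the genes.

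The size of the strain difference on cellulose depended on single libraries and on the scaling. Without replicate 3 of the wild type the 5 log2 differences ran from −10.47 for CEL7B to −7.40 for Triha1_89222. Without replicate 2 of the mutant they were −13.08 for CEL7B and −12.70 for Triha1_441083, while EG III, then without reads in the mutant, was at least 680-fold lower against a limit of 3 reads over the group, and without replicate 3 of the mutant −9.84 for EG III and −10.54 for Triha1_441083. Scaled by library size alone, where the median over all genes was 0.68 and 36.7% of genes were called higher and 11.1% lower, the 5 ran from −10.84 to −8.33, and with the replicate number as a block that of Triha1_89222 was −8.33. In each of these settings all 5 kept their sign and their call.

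Summed over the 5 genes, the wild type on cellulose had 557, 420 and 2481 FPKM in replicates 1 to 3 (mean 1153 ± 1152 SD, n = 3). The mutant on cellulose had 1.26, 3.40 and 0.705 FPKM (mean 1.79 ± 1.42 SD, n = 3). The ratio of these means was 645, and it was 273 without replicate 3 of the wild type, 1171 without replicate 2 of the mutant and 986 with FPKM rescaled by TMM factors. The sum in the wild type came to 1.73 ± 0.603 FPKM without carbon and 0.442 ± 0.400 FPKM on D-fructose (SD, n = 3). In the mutant the sum was 0.702 ± 0.0833 FPKM (SD, n = 3) without carbon. It was 0.173 ± 0.202 FPKM (SD, n = 3) in the mutant on D-fructose. Among these low groups the cellulose cultures of the mutant overlapped with 3 others. These were the wild type without a carbon source, with 1.83, 1.08 and 2.27 FPKM, the mutant without a carbon source, with 0.693, 0.624 and 0.790 FPKM, and the D-fructose cultures of the wild type, at 0.135, 0.298 and 0.894 FPKM.

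The mutant cultures allow a comparison of cellulose with the other media in which no library took part in choosing the genes. Without a carbon source the mutant had 1, 0 and 0 reads on CEL7B in replicates 1 to 3, 0, 0 and 0 on EG III, 6, 2 and 10 on Triha1_14278, 3, 8 and 3 on Triha1_441083 and 4, 5 and 4 on Triha1_89222. In Triha1_89222 every mutant library on cellulose was above every mutant library without a carbon source, while in the other 4 genes the groups overlapped. The closest counts in Triha1_89222 were 6 and 5 reads, and the share of all genes without overlap was not computed. Of the 5, Triha1_14278 passed the filter on low counts, with a log2 difference of 1.06 ± 0.66 (SE) between cellulose and no carbon source and an adjusted p of 0.887 (edgeR quasi-likelihood test). It was 1.66 without replicate 3 of the cultures without carbon and 0.48 without replicate 2 of those on cellulose. No endoglucanase of the 5 was called, where 0.0782% of all genes tested were called higher. At an unadjusted p under 0.05 the count by edgeR was 0 of the 1 tested, and DESeq2 called 0 of 5, with 1 at an unadjusted p under 0.05. Over all genes, 549 of the 13845 tested by DESeq2 were under that p, and 0.116% were called higher.

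Fitted without the filter on low counts, all 5 endoglucanases had a positive log2 difference between cellulose and no carbon source in the mutant, and the adjusted p lay between 0.899 and 0.965 (edgeR). Triha1_89222 had 1.44 ± 0.61 (SE) with an unadjusted p of 0.044, and CEL7B 3.39 ± 1.45 with an unadjusted p of 0.046. In pooled RPM, the ratio of cellulose to no carbon source was 2.81 for Triha1_89222 (95% exact interval 1.48 to 5.71) and 2.18 for Triha1_14278 (1.23 to 4.00). For Triha1_441083 it was 1.34 (0.648 to 2.84), and for CEL7B, with 1 read in the group without carbon, 14.3 (2.21 to 598). These ratios lean on replicate 2 of the cellulose group. Without it the reads on cellulose were 17 for Triha1_89222, 19 for Triha1_14278, 4 for Triha1_441083 and 3 for CEL7B. In the same order they were 13, 18, 14 and 1 over the 3 libraries without a carbon source. The intervals were not recomputed without that replicate, so no response to cellulose is read from them. The summed FPKM of the mutant on cellulose was 2.55 times that without a carbon source, with a p of 0.2 in the exact 2-sided permutation test (n = 3 in each group), where 0.1 is the smallest p possible. This ratio was 1.40 without replicate 2 of the cellulose group.

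**Figure D3:**
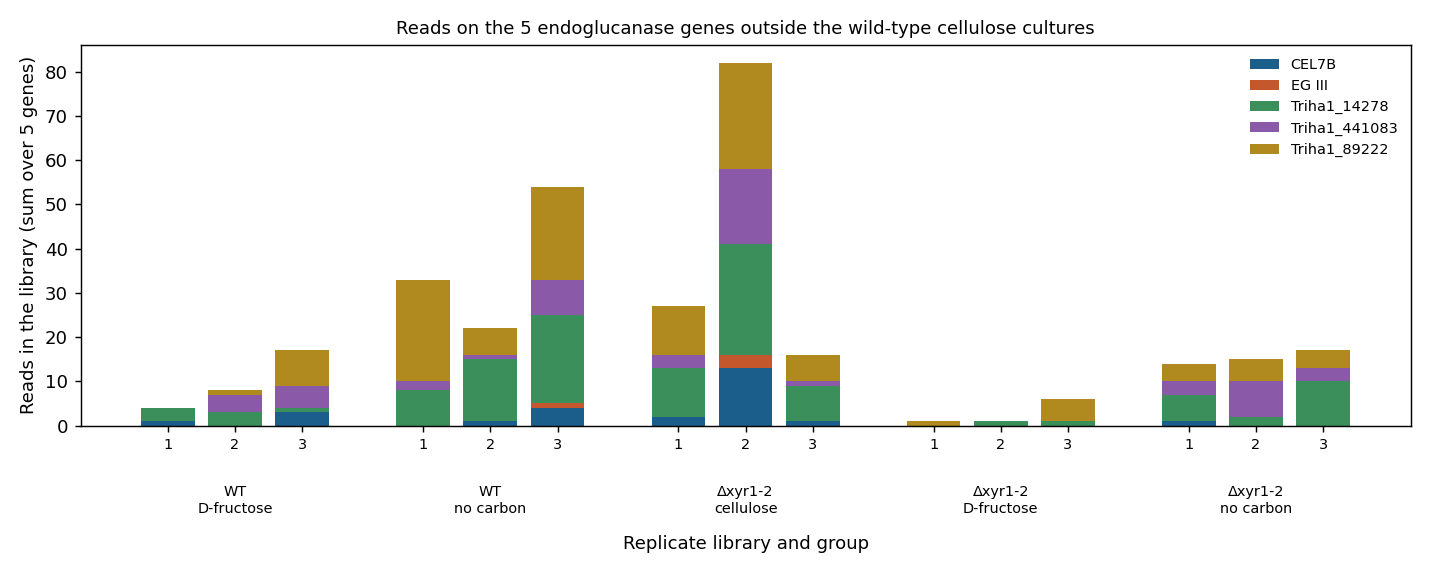
Reads per library on the 5 endoglucanase genes (stacked bars, colours by gene) in the 15 libraries other than wild type on cellulose, grouped by strain and medium. Replicate 2 of the mutant on cellulose has the highest stack, with 82 reads, and the mutant libraries on D-fructose have 1, 1 and 6.

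On D-fructose the mutant had the lowest or joint lowest mean of the 6 groups for each gene. CEL7B, EG III and Triha1_441083 had 0 reads in all 3 libraries, Triha1_14278 had 0, 1 and 1, and Triha1_89222 had 1, 0 and 5. None of the 5 passed the filter on low counts against the mutant on cellulose, where 19.6% of all genes tested were called higher. The count of calls was therefore 0 of 0 tested by edgeR, and DESeq2 called 0 of 5, with 2 at an unadjusted p under 0.05. Over all genes, 7886 of the 13896 tested by DESeq2 were under that p, and 16.1% were called higher and 18% lower. Nothing is read from 2 of 5 beside these shares. Without the filter Triha1_14278 was 3.46 ± 0.87 (SE) higher on the log2 scale on cellulose, with an adjusted p of 0.0136 (edgeR), at a mean of 0.463 FPKM against 0.0226. The other 4 had adjusted p of 0.093 to 0.373 in that fit. Ratios of pooled RPM were 19.9 for Triha1_14278 (95% exact interval 5.18 to 169) and 6.17 for Triha1_89222 (2.60 to 17.8). The summed FPKM was 10.3 times that on D-fructose, with p = 0.1 in the exact permutation test (n = 3 in each group), the smallest it can give. RPM and FPKM are scaled by library size alone, and with that scaling the median log2 difference over all genes was 0.76. The ratios given here include this shift.

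Mean FPKM in the mutant was higher without a carbon source than on D-fructose for 4 of the 5 genes, EG III having no reads in either group. Triha1_441083, with 3, 8 and 3 reads against 0, 0 and 0, was at least 4.73-fold higher against a limit of 3 reads over the D-fructose group, and had an adjusted p of 0.0378 in the edgeR fit without the filter. With the filter 0 of the 5 genes were tested, where 18.7% of all genes tested were called higher and 20.3% lower. DESeq2 called 0 of 4, with 1 at an unadjusted p under 0.05. Over all genes, 7615 of the 13863 tested by DESeq2 were under that p, and 15.2% were called higher and 18% lower. The summed FPKM was 4.06 times that on D-fructose (exact permutation p = 0.1, n = 3 in each group). This ratio includes a shift of all genes, whose median log2 difference was 0.73 when scaled by library size alone. Every sum without a carbon source was above every sum on D-fructose, on 14, 15 and 17 reads against 1, 1 and 6 in replicates 1 to 3. The share of all genes without overlap was not computed for these groups, and nothing is read from this.

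For the same pair of media in the wild type, mean FPKM was higher without a carbon source for all 5 genes, but these D-fructose libraries had a part in choosing them. Summed over each group, the reads were 5 against 4 for CEL7B, 1 against 0 for EG III and 11 against 9 for Triha1_441083. Scaled by library size alone, as FPKM are, the median log2 difference over all genes was 0.42, so no rise is read for these genes. Triha1_14278 had 8, 14 and 20 reads without a carbon source and 3, 3 and 1 on D-fructose. None of the 5 passed the filter of edgeR, where 14.4% of all genes tested were called higher without a carbon source. DESeq2 called 0 of 5, with 1 at an unadjusted p under 0.05. Over all genes, 6845 of the 13907 tested by DESeq2 were under that p, and 11.3% were called higher and 14.4% lower.

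Between the strains without a carbon source, Triha1_89222 was the one gene of the 5 whose groups did not overlap. The share of all genes without overlap was not computed, and nothing is read from this count. Triha1_89222 had 1.11 ± 0.550 FPKM (SD, n = 3) in the wild type and 0.330 ± 0.0102 in the mutant. In pooled RPM the wild type was 3.49 times the mutant (95% exact interval 1.87 to 7.01). The edgeR fit without the filter gave a log2 difference, mutant minus wild type, of −1.74 ± 0.56 (SE), an unadjusted p of 0.0116 and an adjusted p of 0.799. Triha1_14278, the one gene that passed the filter, had a log2 difference of −1.04 ± 0.60 and an adjusted p of 0.757 (edgeR), with −1.64 without replicate 3 of the mutant and −0.55 without replicate 2 of the mutant. Triha1_441083 had 11 reads in the wild type and 14 in the mutant over the 3 libraries.

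No endoglucanase of the 5 was called between the strains without a carbon source, where 0.132% of all genes tested were called lower in the mutant. At an unadjusted p below 0.05 edgeR gave 0 of the 1 tested, while DESeq2 gave 1 of 5 and called 0. Over all genes, 692 of the 13838 tested by DESeq2 were under that p, and 0.159% were called lower. The summed FPKM of the wild type was 2.46 times that of the mutant (exact permutation p = 0.1, n = 3 in each group). On D-fructose, where both strains had 8 reads or fewer per gene and library, none of the 5 passed the filter, and 0.00917% of all genes tested were called lower in the mutant. DESeq2 called 0 of 4 there, with 0 at an unadjusted p under 0.05. Over all genes, 1158 of the 13743 tested by DESeq2 were under that p, and 0.64% were called higher and 0.146% lower.

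The other 9 endoglucanases, as a sum, were expressed in all 6 groups. Their summed FPKM was 298 ± 115 in the wild type on cellulose, 271 ± 15.6 in the mutant on cellulose, 239 ± 0.941 in the wild type without a carbon source and 270 ± 27.5 in the mutant without a carbon source (SD, n = 3). On D-fructose it was 369 ± 66.1 in the wild type and 411 ± 228 in the mutant (SD, n = 3). The 5 cellulose-induced genes made up 73.5% ± 10.3 (SD, n = 3) of the FPKM of all 14 genes in the cellulose cultures of the wild type. The mean share in the other 5 groups ran from 0.0548% to 0.718%.

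The families GH12, GH5_5 and GH45 also held endoglucanases with other levels or another pattern. In GH12, Triha1_362575 had 73.6 ± 8.49 FPKM in the wild type on cellulose, close to EG III, but 157 ± 11.7 in the wild type on D-fructose and 122 ± 3.45 in the mutant on cellulose (SD, n = 3). In GH5_5, Triha1_6750 had 192 ± 101 FPKM in the wild type on cellulose, 186 ± 55.1 in the wild type on D-fructose and 68.7 ± 5.31 in the mutant on cellulose (SD, n = 3). In GH45, Triha1_521975 had 4.33 ± 3.66 FPKM in the wild type on cellulose, 0.826 ± 0.618 in the wild type on D-fructose and 0.189 ± 0.165 in the mutant on cellulose (SD, n = 3). The GH12 gene Triha1_112585, the GH45 gene Triha1_21506 and the GH5_15 gene Triha1_93404 had means under 1 FPKM in all 6 groups.

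Between the strains on cellulose, 6 of the other 9 endoglucanases were tested, of which 1 was called higher and 2 lower in the mutant, beside 21.5% and 20.7% of all genes tested. Triha1_119344 was higher, with a log2 difference of 2.02 ± 0.45 (SE) and an adjusted p of 0.00965. Lower in the mutant were Triha1_521975, by −5.12 ± 0.94 with an adjusted p of 0.00483, and Triha1_6750, by −2.15 ± 0.36 with an adjusted p of 0.00337 (edgeR quasi-likelihood test). Triha1_80467 had 1.06 ± 0.38 and was not called, but DESeq2 called it higher (adjusted p = 0.0314), as did edgeR without replicate 3 of the wild type, at 1.62. Scaled by library size alone, both Triha1_80467 and Triha1_507162 were also called higher. In the mutant on cellulose against no carbon source, 0 of the 5 tested were called, with Triha1_80467 as the 1 with an unadjusted p under 0.05, at 0.29 ± 0.12 (edgeR).

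Against D-fructose, the mutant on cellulose had 2 of the 5 other endoglucanases tested called higher and 2 lower, beside 19.6% and 19.9% of all genes tested. Triha1_119344 rose by 4.38 ± 0.54 (SE) on the log2 scale (adjusted p = 0.000797, edgeR) and Triha1_507162 of subfamily GH5_12 rose by 1.47 ± 0.16 (adjusted p = 0.000493, edgeR). Triha1_362575 had −1.22 ± 0.28 (adjusted p = 0.00886) and Triha1_6750 −2.56 ± 0.69 (adjusted p = 0.0175), but the call of Triha1_362575 was lost with scaling by library size alone, at −0.45 where the median over all genes was 0.76, and without replicate 1 on D-fructose, at −0.88. That of Triha1_6750 was lost without any 1 of the mutant cellulose libraries, at adjusted p of 0.052 to 0.064 (edgeR).

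**Figure D4:**
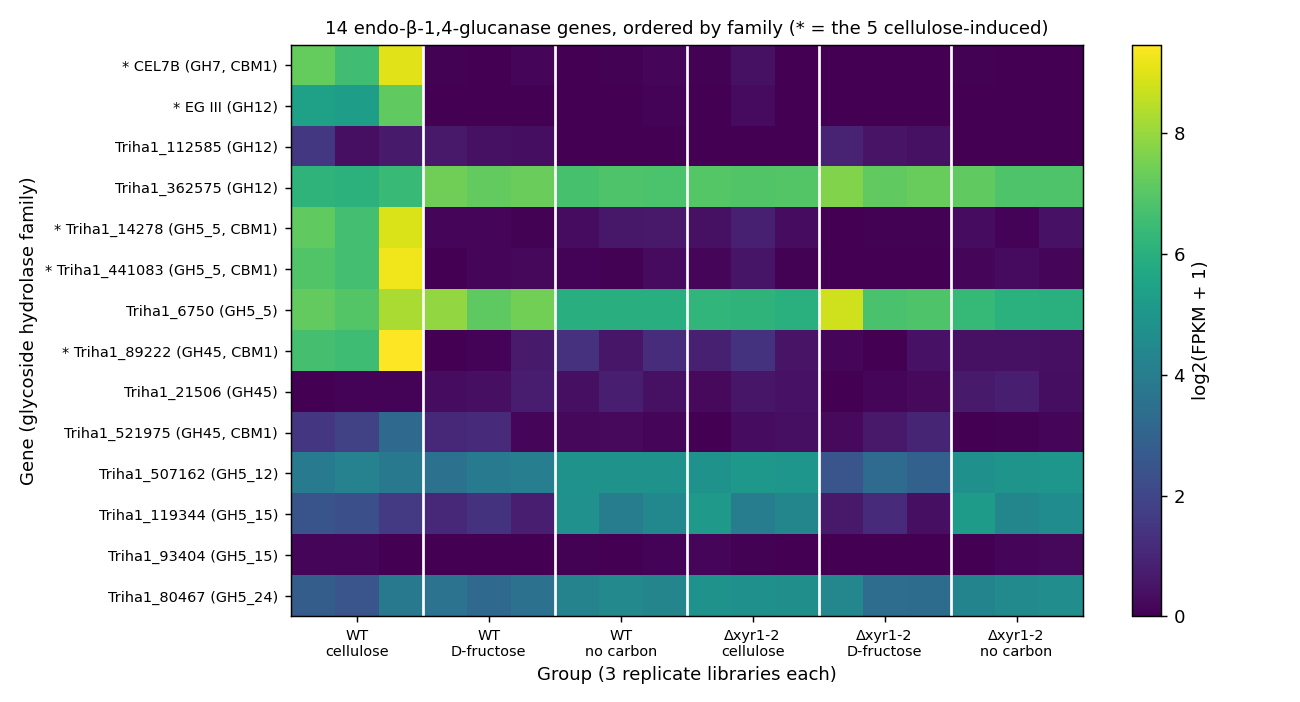
log2(FPKM + 1) of all 14 endoglucanase genes (rows, ordered by family) in the 18 libraries (columns, by group), with the 5 cellulose-induced genes starred. The starred rows are bright in the 3 wild-type cellulose columns and dark in the other 15, while Triha1_362575 and Triha1_6750 are bright in all 6 groups.

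The genes whose pattern over the 18 libraries was most like the mean of the 5 endoglucanases included 5 annotated to xylan breakdown among the first 8. Likeness was measured by Pearson's r of log2(FPKM + 1) with the mean log2(FPKM + 1) of the 5, among 6098 other genes with a mean of at least 10 FPKM in the wild type on cellulose. The points share their libraries and fall into a high and a low cluster, so that r mostly reflects the difference of the wild-type cellulose libraries from the rest, and no p is given. The highest r was 0.9988, for the GH30_7 endo-xylanase Triha1_147762, which had a mean of 294 FPKM in the wild type on cellulose and 0.164 in the mutant on cellulose. A predicted sugar transporter, Triha1_513737, followed with 0.9987, at 40.6 and 0.0192 FPKM in the same groups. Next were the GH67 α-glucuronidase Triha1_21376 with 0.9985, the GH10 xylanase Triha1_91773 with 0.9963 and the GH11 xylanase Triha1_127746 with 0.9946.

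The remaining 3 of the 8 genes most alike were Triha1_94998 of carbohydrate esterase family CE5 with an r of 0.9938, the GH30_7 xylanase Triha1_85618 with 0.9936 and the cellobiohydrolase CEL6 with 0.9934. CEL7A ranked 17 with 0.9898, and the AA9 genes Triha1_99387 and Triha1_488374 ranked 12 and 16. The regulator gene *xyr1* ranked 516, with an r of 0.6059. Unlike the endoglucanases it was expressed in all 3 media in the wild type, at 25.7 to 40.0 FPKM on D-fructose and 59.6 to 64.8 FPKM without a carbon source.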

How the data were processed

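Bulk RNA of 18 cultures was sequenced. According to the study's methods, the pre-cultures of each replicate set started from their own plate of spores. The authors mapped paired-end reads with STAR 2.5.2b against the wild-type genome, counted them per gene with HTSeq 0.5.4 and deposited these raw counts. The FPKM deposited by the authors are these counts divided by transcript length and library total. Genes were placed on assembly Triha v1.0 by name, which matched for 14290 genes.

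Counts were tested across all genes in edgeR 4.0.16 by its quasi-likelihood F-test (R 4.3.3) on the 6 libraries of the 2 groups compared, with filterByExpr, TMM and Benjamini-Hochberg adjustment. Alternatives were DESeq2 1.42.0, RLE factors, library size only, no low-count filter, all 18 libraries in 1 fit, a replicate block, calls without the FPKM criterion, calls at an adjusted p below 0.01, and each library left out in turn. Standard errors were derived from the F statistic. Summed FPKM were compared by exact permutation (scipy 1.17.1). The fits were tested on simulated data.

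Same-numbered libraries deviated together (r over 0.1 for all 3 numbers) in 2 of the 9 comparisons, cellulose against D-fructose in the wild type (r = 0.218 to 0.434) and cellulose against no carbon in the mutant (r = 0.153 to 0.219).

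The genes named are the 14 endoglucanases, the cellobiohydrolases, AA9 genes, *xyr1* and the 8 genes most alike in pattern. Members and lists were chosen with earlier results of these data known.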

Additional observations from a re-analysis of the deposited data

How the results depend on the processing

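Values were recomputed under alternatives for the counts of called endoglucanases, the sums, the share and the genes most alike. Of the 160 values, 154 stayed within the spread of the replicates or within 1.5 times the count. In 35 of these 154 no endoglucanase of the 5 passed the low-count filter, so that their count of 0 says nothing on stability. The 3 comparisons with the wild type on cellulose use libraries that chose the genes, so that their calls say little on stability either. For the ratio of summed FPKM between the strains on cellulose, the spread (SD) was 644 beside a value of 645, and 273 and 1171 both stayed within it. Without both the low-count filter and the FPKM criterion, 1 of the 5 endoglucanases was called in place of 0 in each of 3 comparisons. This setting was chosen after seeing the data. The comparisons were the mutant on cellulose, the mutant without carbon and the wild type without carbon, each against D-fructose. The share of all genes called was not computed for this setting. With only the low-count filter left out, it was 16.6% higher and 16.5% lower, 15.5% and 16.7%, and 12% and 12.9% in the same order. Nothing is read from 1 of 5 beside such shares. Leaving out each library in turn gave 0 to 1 called for the wild type without carbon against D-fructose. The 1 came without replicate 3 on D-fructose, where 16.9% of all genes tested were called higher and 17.2% lower. Leaving out libraries gave 4 to 5 called for the wild type on cellulose against D-fructose. By CPM in place of FPKM, which leaves length in, CEL7B held 31.2% of the 5 genes in the wild type on cellulose in place of 23.4%. With log2(FPKM + 0.1), 5 of the 8 genes most alike were shared. With the replicate block 5 endoglucanases were called in each of the 3 comparisons with the wild type on cellulose, and 0 in the other 6, where the filter left 1 to test in 2 and none in 4. Scaling by library size alone moved the calls over all genes to 11.8% higher and 35.8% lower for the wild type on cellulose against no carbon, and to 38.6% and 10% for the mutant on cellulose, 37.9% and 10.5% for the mutant without carbon and 24.4% and 10.9% for the wild type without carbon, each against D-fructose. Outside the wild-type cellulose group, counts of 0 to 25 reads limit every difference, and 1 mutant clone and 3 cultures in each group limit the strain comparison.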
